A study of Zea mays with 27 samples.

Results

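The genes described here are 4 maize genes whose products modify histones or maintain gene silencing: HDT1 (LOC542355), sdg110 (LOC542662), SET102 (LOC542678) and rmr7 (LOC100037782, also RPD2). Their members are all spots that carry one of these 4 symbols in the annotation of the array, 21 of 16200 spots. Spots lay in runs of 3 with the same annotation, and each run was averaged to 1 cDNA, so the members are 7 of 5400 cDNAs and 4 of 213 annotated genes. HDT1 had 4 cDNAs, called HDT1 cDNA 1 to HDT1 cDNA 4 in the order of their spots, and the other genes had 1 cDNA each. The genes were picked by their annotation and not by a rule on measured values, but with earlier results of these data known.

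Histone deacetylases remove acetyl groups from histone tails, and the HD2 type to which HDT1 belongs occurs only in plants and was first purified from maize as a protein of the nucleolus. SET domains transfer methyl groups to lysines of histones, and SET102 and sdg110 are named for this domain. The product of rmr7 is a large subunit of the plant RNA polymerases that act in silencing by small RNAs, and in maize it is required to maintain the repressed state in paramutation, including that of the Pl allele that drives plant colour. B and Pl switch on the anthocyanin pathway, and the glutathione S-transferase made by Bz2 brings the pigment into the vacuole.

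RNA of adult leaves was hybridised to 27 dual-colour arrays, with 1 group in Cy5 and another in Cy3 on each. Plants were of 4 genotypes, labelled b,pl, B,Pl, mutator and bz2, and were grown beneath plastic filters labelled CA, LE or PE, sampled 1 day after a PE filter was taken away (PE removed), or kept in a greenhouse with 8 h of added UV-B or with none. On 20 arrays the other channel held b,pl CA RNA, and on the other 7 it held CA RNA of B,Pl, bz2 or mutator, whichever was tested. The number of arrays was 3 for B,Pl PE, 2 each for the LE, PE, PE removed and UV-B groups of b,pl, for CA and PE removed of B,Pl and for LE of bz2, and 1 for each of the other 10 groups. The group b,pl CA had no array as a tested group, so its own spread was not estimated apart. As the other channel on 20 arrays, any variation between its RNA preparations enters the spread that all tests share. Whether these channels held separate RNA is not in the labels. Whether arrays of a group came from separate plants is not in the labels, and p-values therefore measure the spread between arrays, which may be technical. Tissue identity could not be checked from ratios, which carry no level of a gene.

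The deposited values were read as log2 ratios, of which the numerator is not stated. A value was counted as it stands where the tested group was in Cy5 and with its sign turned where it was in Cy3. If Cy5 is the numerator, a positive value means more RNA in the group named first, and if Cy3 is the numerator it means less. On 4 arrays the dye labels conflict (mutator CA, bz2 CA, B,Pl PE replicate 2 and the second array of b,pl PE removed), and the array titles were followed. Of 99 pairs of arrays of the same dye against b,pl CA, 1 correlated below −0.3 over all cDNAs, with Pearson r −0.403 between b,pl UV-B replicate 2 and the first array of b,pl PE removed. Their direction is not settled, and fitted differences of the groups they measure are given with the sign turned too. This screen left out pairs of unlike dye. Replicates 2 and 3 of B,Pl PE, a dye swap, ran opposite to each other as signed by dye (Spearman rho −0.608). Their direction is not settled either, and fitted B,Pl PE differences are not given separately with replicate 3 turned. The SD of the centred values was 1.26 on b,pl PE replicate 2 and 1.22 on B,Pl CA replicate 2, against 0.270 on the narrowest array, and these 2 arrays with b,pl LE replicate 2 are called the 3 widest arrays. Of the member values used, 4 rested on fewer than 3 spots, all on these arrays: HDT1 cDNA 1 on B,Pl CA replicate 2 on 1 spot, and sdg110 on the same array, HDT1 cDNA 4 on b,pl PE replicate 2 and rmr7 on b,pl LE replicate 2 on 2 spots each.

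Few member values exceeded 1 in size, and several of the extremes lay on the 3 widest arrays. The signed log2 ratio of HDT1 cDNA 1 ran from −0.89 on B,Pl PE removed replicate 1 to 1.90 on B,Pl CA replicate 2, with a median of 0.08 over 26 arrays. That of HDT1 cDNA 2 ran from −1.22 on B,Pl UV-B to 1.18 on mutator PE, with a median of −0.09 over 26 arrays. For these first 2 cDNAs b,pl PE replicate 2 gave no value. HDT1 cDNA 3 had the highest median, 0.35 over 27 arrays, from −1.32 on B,Pl PE replicate 1 to 1.34 on mutator LE. HDT1 cDNA 4 ran from −0.66 on bz2 LE replicate 2 to 2.34 on b,pl PE replicate 2, and this highest value was the only one over 1 in size.

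Among the SET-domain genes, SET102 was the narrowest of all members and sdg110 was wide because of few arrays. SET102 ran from −0.81 on mutator PE to 0.69 on bz2 LE replicate 2, and 0 of its 27 values exceeded 1 in size. sdg110 ran from −1.05 on B,Pl PE replicate 1 to 2.26 on B,Pl CA replicate 2, and these were its 2 values over 1 in size. rmr7 ran from −2.32 on B,Pl CA replicate 2 to 1.55 on b,pl PE replicate 2, and its 3 values over 1 in size, with −2.08 on b,pl LE replicate 2, all lay on the 3 widest arrays. The 3 spots of rmr7 also agreed least, with a median SD within the run of 0.0731 and an SD of 0.803 on b,pl PE replicate 2, against median SDs of 0.0335 to 0.0581 for the other members.

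**Figure D1:**
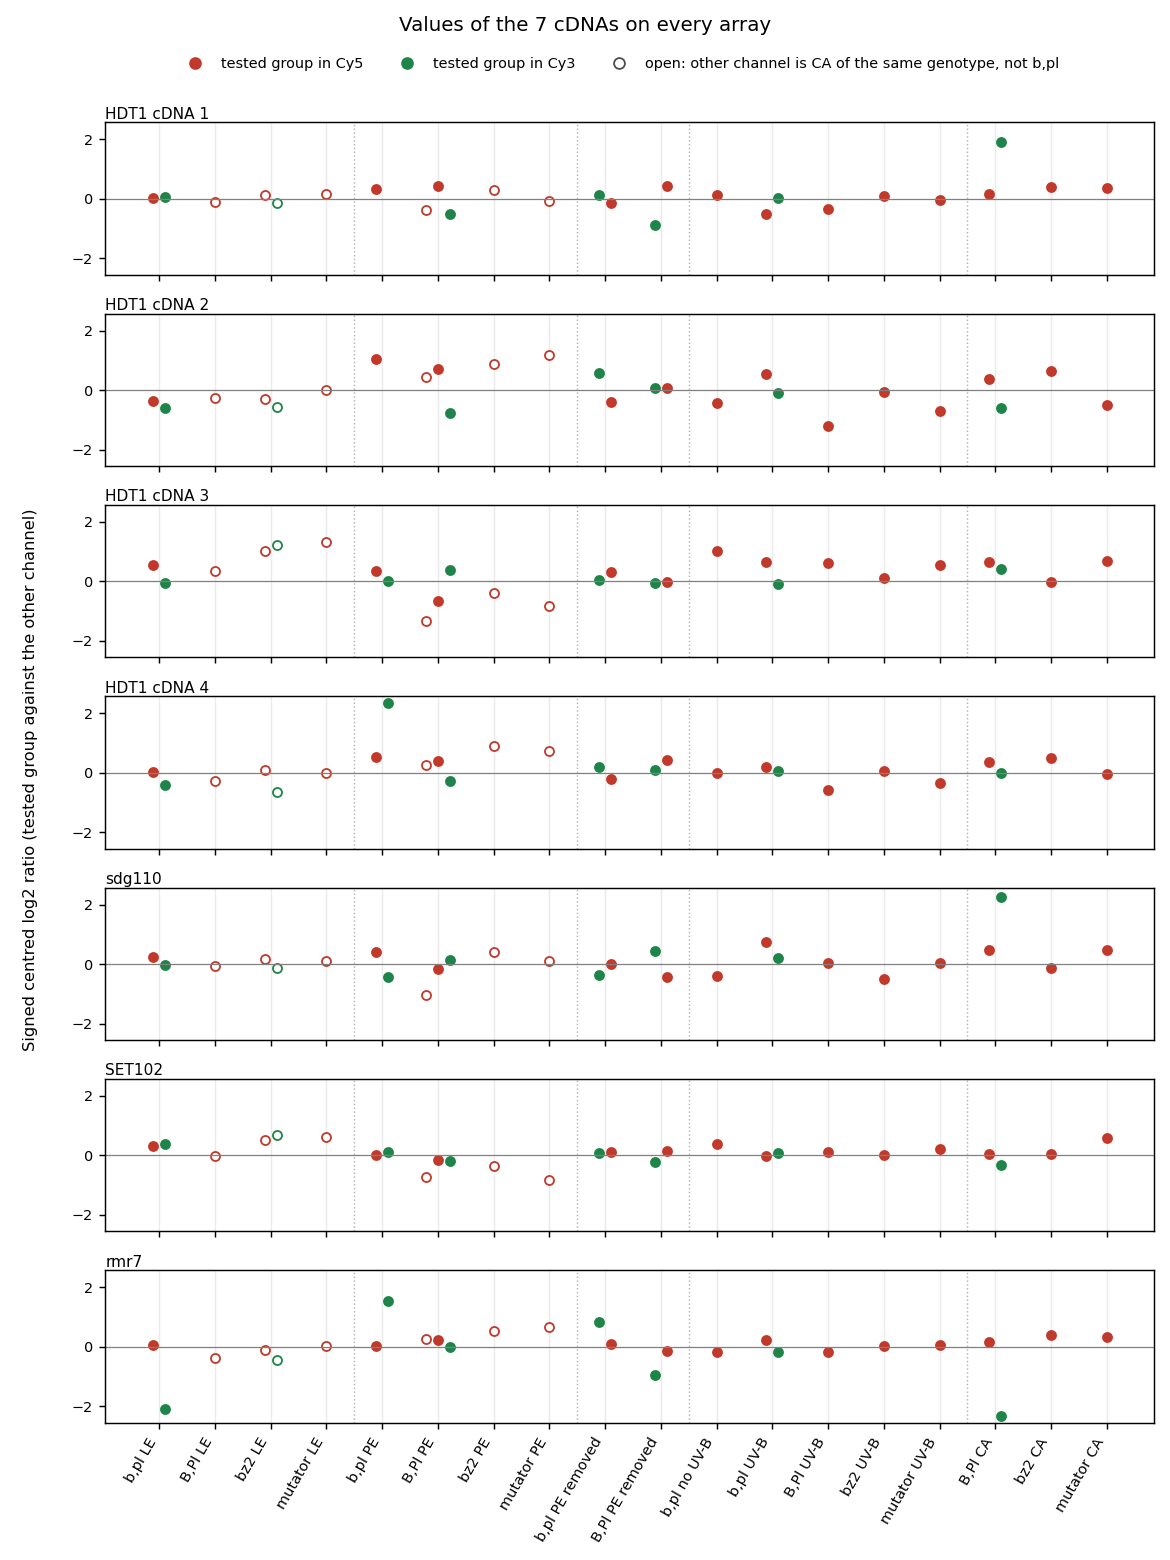
Signed, centred log2 ratio (vertical axis) of each of the 7 cDNAs on every array, by tested group (horizontal axis). Red points had the tested group in Cy5 and green points in Cy3, and open points had CA RNA of the same genotype in the other channel; HDT1 cDNA 3 and SET102 lie above 0 on most LE arrays and below 0 on most PE arrays outside b,pl, and the values of rmr7 beyond 1 in size are all green.

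The groups were compared with limma in 1 linear model over all arrays, with a term for each group and 1 for dye, and p-values adjusted over all cDNAs tested. In 21 comparisons 0 of the 7 members passed an adjusted p of 0.05, and 0 passed in 2 F tests of differences between genotypes. Without adjustment 19 of 147 member tests had a p under 0.05, which is 12.9% against 7.16% over all cDNAs and the same comparisons. Comparisons share groups and members share a gene, so these tests are not independent. The smallest adjusted p of any member was 0.0749.

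Under LE against CA, HDT1 cDNA 3 and SET102 had the smallest p-values of the members, both with positive values, and neither passed after adjustment. HDT1 cDNA 3 read 0.56 and −0.05 on the b,pl LE arrays and 0.36 on the B,Pl LE array. It read 1.01 and 1.21 on the bz2 LE arrays, which are dye swaps of each other, and 1.34 on the mutator LE array. The cDNA was thus above 0 on 5 of 6 LE arrays, and the b,pl and B,Pl values all lay below those of bz2 and mutator. The fitted log2 difference was 0.26 (SE 0.281) in b,pl, 0.31 (SE 0.410) in B,Pl, 1.11 (SE 0.281) in bz2 and 1.30 (SE 0.410) in mutator. Averaged over the 4 genotypes it was 0.74 (SE 0.179, limma adjusted p = 0.0749), and the genotypes did not differ past the threshold (limma F test, adjusted p = 1.00). The mean passed with B,Pl PE replicate 3 left out, at 0.69 (limma adjusted p = 0.0337), together with 0.989% of all cDNAs. Its limma adjusted p ran from 0.0246 to 0.999 across 29 alternatives, and the bz2 difference also passed without that array, together with 0.5% of all cDNAs. Read as tested group over other channel on every array, HDT1 cDNA 3 stood at −0.10 in bz2 and 0.475 for the mean.

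SET102 read 0.30 and 0.39 on the b,pl LE arrays, −0.03 on B,Pl, 0.51 and 0.69 on bz2 and 0.63 on mutator. The only LE array at or below 0 was that of B,Pl. Its fitted differences were 0.35 (SE 0.185), −0.03 (SE 0.269), 0.60 (SE 0.185) and 0.64 (SE 0.269) in the same order. The mean over genotypes was 0.39 (SE 0.118, limma adjusted p = 0.131). SET102 thus lay between 0.30 and 0.69 on the 5 LE arrays outside B,Pl as signed by dye. Read as tested group over other channel, its fitted difference was −0.04 in b,pl, −0.09 in bz2 and 0.12 for the mean.

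The other HDT1 cDNAs had smaller or negative mean values under LE, and differences between cDNAs were not tested. HDT1 cDNA 2 read −0.36 and −0.61 in b,pl, −0.27 in B,Pl, −0.29 and −0.58 in bz2 and 0.00 in mutator, so 5 of 6 LE arrays were below 0. Its mean fitted difference was −0.40 (SE 0.216, limma adjusted p = 0.394). HDT1 cDNA 1 lay between −0.15 and 0.14, above 0 on 4 of 6 LE arrays, and HDT1 cDNA 4 lay between −0.66 and 0.08, above 0 on 2 of 6. For HDT1 cDNA 1 and HDT1 cDNA 4 the means were 0.00 (SE 0.281) and −0.21 (SE 0.235), each within 1 SE of 0.

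The sdg110 cDNA stayed near 0 under LE, between −0.13 and 0.23 on the 6 arrays, and its largest fitted difference was 0.12 (SE 0.552) in mutator. In b,pl it was 0.10 (SE 0.379, limma adjusted p = 1). For rmr7 the LE arrays read 0.05 and −2.08 in b,pl, −0.38 in B,Pl, −0.12 and −0.45 in bz2 and 0.02 in mutator. The b,pl difference of rmr7, −1.01 (SE 0.589, limma adjusted p = 0.879), rests on b,pl LE replicate 2, one of the 3 widest arrays, and was −0.06 without it. Of all cDNAs tested, the percent called by limma under LE was 0 in b,pl, 0.242 in B,Pl, 0.556 in bz2, 0.0557 in mutator, 1.29 for the mean of 4 genotypes and 0.242 for the F test between genotypes, against 0 of 7 members each time. At an unadjusted p under 0.05 the members numbered 2 each in bz2, mutator and the mean, always HDT1 cDNA 3 and SET102, and 0 in b,pl, B,Pl and the F test. Over all cDNAs that share was 14.3% in bz2, 5.97% in mutator, 17.1% for the mean, 6.56% in b,pl, 4.36% in B,Pl and 4.05% for the F test.

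Under PE against CA the same 2 cDNAs were negative on most arrays outside b,pl, while HDT1 cDNA 2 and HDT1 cDNA 4 were mostly positive. None passed after adjustment, and the percent of all cDNAs called was 0 in each genotype, for the mean of 4 genotypes and for the F test between genotypes. HDT1 cDNA 3 read 0.35 and 0.01 in b,pl, −1.32, −0.65 and 0.37 in B,Pl, −0.39 in bz2 and −0.83 in mutator. The B,Pl arrays with PE in Cy5 were both below 0, and the array with PE in Cy3 was above 0. Of these arrays, only B,Pl PE replicate 1 was read against B,Pl CA. Replicates 2 and 3 were read against b,pl CA, so for every member their values hold genotype as well as filter. For HDT1 cDNA 3 the fitted level of B,Pl CA stood 0.71 (SE 0.245) above b,pl CA. Its fitted difference was 0.18 (SE 0.281) in b,pl and −1.02 (SE 0.286) in B,Pl, and the mean was −0.54 (SE 0.183, limma adjusted p = 0.369). With the 4 arrays of conflicting dye labels turned, its fitted levels relative to b,pl CA were 0.17 in B,Pl PE and 0.87 in B,Pl CA. SET102 read −0.00 and 0.11 in b,pl, −0.71, −0.17 and −0.19 in B,Pl, −0.35 in bz2 and −0.81 in mutator. As signed by dye, all 5 PE arrays outside b,pl were below 0, and the b,pl arrays lay nearer to 0 than any of them. This count includes −0.17 and −0.19 from replicates 2 and 3 of B,Pl, whose direction is not settled. Turning either array would put its value above 0. The mean of SET102 was −0.37 (SE 0.120, limma adjusted p = 0.369), and −0.35 with the 4 arrays of conflicting dye labels turned. As the LE and PE comparisons share CA samples, their opposite signs are not independent of each other.

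HDT1 cDNA 4 read 0.53 and 2.34 in b,pl, 0.25, 0.40 and −0.29 in B,Pl, 0.89 in bz2 and 0.75 in mutator. Its value was positive on 6 of 7 PE arrays, the exception being B,Pl PE replicate 3, with PE in Cy3. Replicate 2, also read against b,pl CA, had PE in Cy5 and conflicting dye labels, and read 0.40. The fitted b,pl difference was 1.43 (SE 0.368, limma adjusted p = 0.391) and moved with single arrays. It was 0.36 without b,pl PE replicate 2, one of the 3 widest arrays. Without b,pl PE replicate 1 it was 2.51 and passed (limma adjusted p = 0.000480), together with 12.5% of all cDNAs, and so did the mean of 4 genotypes at 0.95, with 4.11% of all cDNAs. For b,pl the limma adjusted p ran from 0.000480 to 1 across 29 alternatives. Turning the second b,pl PE array gave a b,pl difference of −0.905.

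HDT1 cDNA 2 read 1.04 in b,pl, with no value on the second b,pl array, 0.42, 0.69 and −0.77 in B,Pl, 0.87 in bz2 and 1.18 in mutator. Its sign was that of HDT1 cDNA 4 on 6 of 6 arrays, and both were negative on B,Pl with PE in Cy3. The mean fitted difference was 0.66 (SE 0.248), with b,pl taken from 1 array. HDT1 cDNA 1 stayed between −0.50 and 0.42, and its mean difference was −0.06 (SE 0.323), again with 1 b,pl array. Across the 4 cDNAs of this 1 deacetylase gene the mean PE difference was thus positive for 2, negative for 1 and within 1 SE of 0 for 1.

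sdg110 read 0.39 and −0.42 in b,pl, −1.05, −0.16 and 0.13 in B,Pl, 0.40 in bz2 and 0.11 in mutator. Only B,Pl gave a fitted difference beyond 2 SE, −1.21 (SE 0.385, limma adjusted p = 0.53). That value is taken against B,Pl CA, for which sdg110 read 2.26 on one of the 3 widest arrays, and it was −0.84 without that array. Across 29 alternatives the difference ran from −1.62 to −0.153. rmr7 read 0.04 and 1.55 in b,pl, 0.24, 0.21 and 0.01 in B,Pl, 0.52 in bz2 and 0.68 in mutator. It was above 0 on 7 of 7 PE arrays, with B,Pl PE replicates 2 and 3 read against b,pl CA and not B,Pl CA. The 0.21 on replicate 2 would be negative if its conflicting dye labels were turned, and replicate 3 lay close to 0. The mean difference was 0.54 (SE 0.383, limma adjusted p = 0.562), within 2 SE of 0. Without b,pl PE replicate 2 the mean was 0.18. Read as tested group over other channel on every array, the mean of rmr7 was −0.00. At an unadjusted p under 0.05 there was 1 member in b,pl, 2 in B,Pl, 0 in bz2, 1 in mutator, 4 for the mean and 0 for the F test, against 10.6%, 9.04%, 1.77%, 2.94%, 11.4% and 1.25% of all cDNAs in the same order.

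**Figure D2:**
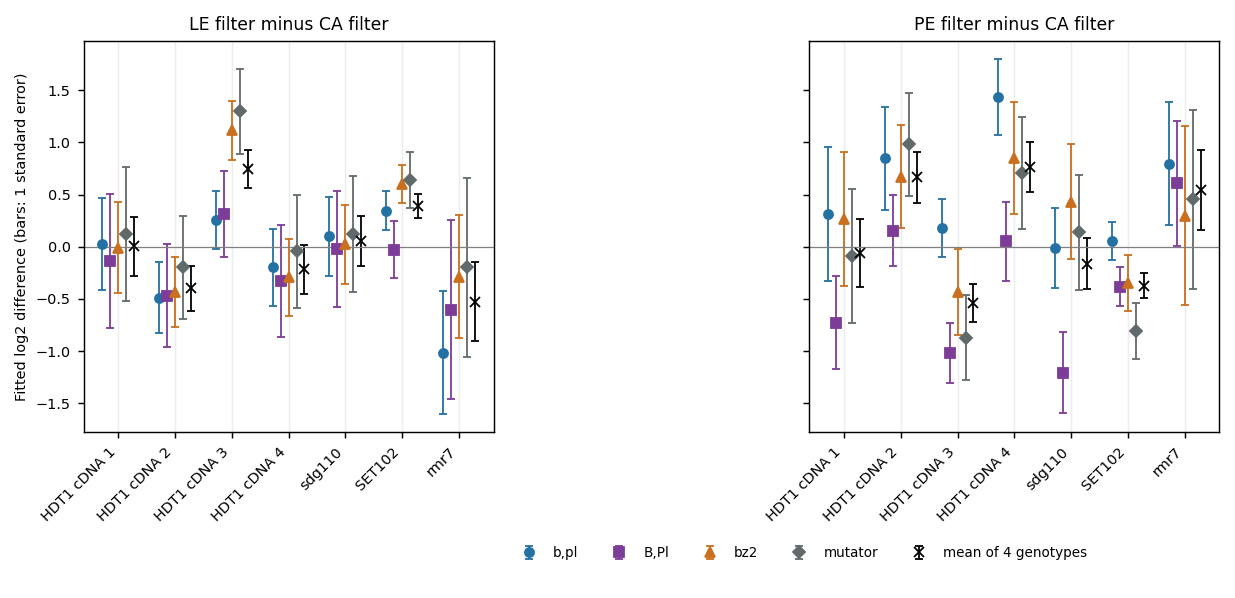
Fitted log2 difference from CA (vertical axis, bars of 1 SE) under LE (left) and PE (right) for each cDNA, by genotype and for the mean of 4 genotypes. The mean of HDT1 cDNA 3 is 0.74 under LE and −0.54 under PE, that of SET102 is 0.39 and −0.37, and 0 of the 7 cDNAs passed the adjusted threshold in either panel.

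At 1 day after removal of the PE filter the 7 cDNAs lay within 1 SE of CA in b,pl, while sdg110 and HDT1 cDNA 1 had fitted differences below −1 in B,Pl that did not pass the test. The percent of all cDNAs called was 0 in both genotypes, against 0 of 7 members, and at an unadjusted p under 0.05 there were 0 members in b,pl and 1 in B,Pl, against 1.02% and 6.89% of all cDNAs. In b,pl the Cy3 and Cy5 arrays read 0.04 and 0.32 for HDT1 cDNA 3, 0.09 and 0.11 for SET102 and −0.36 and 0.00 for sdg110. For rmr7 they read 0.83 and 0.09. SET102 gave the closest pair, and its fitted difference was 0.10 (SE 0.185), while that of rmr7 was 0.46 (SE 0.589). With the sign of the first array turned, the b,pl differences were −0.37 for rmr7, 0.01 for SET102, 0.14 in place of 0.18 for HDT1 cDNA 3, 0.18 in place of −0.18 for sdg110 and −0.49 in place of 0.08 for HDT1 cDNA 2. None of these turned values passed.

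In B,Pl after removal, sdg110 read 0.44 with the group in Cy3 and −0.42 in Cy5, and HDT1 cDNA 1 read −0.89 and 0.42, so both swaps disagreed in sign. The fitted differences from B,Pl CA were −1.27 (SE 0.503, limma adjusted p = 0.707) for sdg110, −1.09 (SE 0.582) for HDT1 cDNA 1 and −0.75 (SE 0.373, limma adjusted p = 0.707) for HDT1 cDNA 3. All 3 read above 0 on both arrays of B,Pl CA, the group subtracted. On the PE removed arrays themselves, measured against b,pl CA, they lay on both sides of 0 or close to it. Without B,Pl CA replicate 2 the sdg110 difference was −0.68. For HDT1 cDNA 1 the B,Pl CA arrays read 0.14 on replicate 1 and 1.90, from 1 spot, on replicate 2. Its fitted level in B,Pl PE removed was −0.24 (SE 0.439) relative to b,pl CA. The rmr7 arrays read −0.94 in Cy3 and −0.13 in Cy5, and the fitted difference was 0.26 (SE 0.780).

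In the greenhouse, b,pl plants given UV-B gave no fitted difference from b,pl CA beyond 2 SE in any of the 7 cDNAs, and plants without UV-B gave a positive value of HDT1 cDNA 3. On the Cy5 and Cy3 arrays of b,pl UV-B, HDT1 cDNA 3 read 0.66 and −0.10, sdg110 read 0.75 and 0.22, SET102 read −0.02 and 0.07 and rmr7 read 0.24 and −0.16. Both sdg110 values were above 0, and its fitted difference was 0.48 (SE 0.379), or 0.27 with the sign of the unsettled second array turned. Turned in the same way, the other members stood between −0.27 for HDT1 cDNA 1 and 0.38 for HDT1 cDNA 3, against −0.23 and 0.28 as labelled. Without UV-B the single array read 1.03 for HDT1 cDNA 3, 0.38 for SET102, −0.38 for sdg110, −0.19 for rmr7 and −0.45 for HDT1 cDNA 2. Among these, HDT1 cDNA 3 had the smallest p, with a difference of 0.99 (SE 0.410, limma adjusted p = 0.628), and SET102 stood at 0.38 (SE 0.269, limma adjusted p = 0.919). rmr7 stood at −0.41 (SE 0.857). UV-B minus no UV-B lay between −0.71 for HDT1 cDNA 3 (SE 0.497) and 0.85 for HDT1 cDNA 2 (SE 0.597), and turned it was −0.62 and 0.95.

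The percent of all cDNAs called was 0 for UV-B minus CA, for no UV-B minus CA and for UV-B minus no UV-B, with 0 of 7 members in each. At an unadjusted p under 0.05 there was 1 member for no UV-B minus CA and 0 for the other 2, against 7.12% of all cDNAs for the first, 13.0% for UV-B minus CA and 6.03% for UV-B minus no UV-B. Greenhouse and filters differ in growth place as well as light, which cannot be told apart in the comparisons with CA.

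Between genotypes at greenhouse UV-B, HDT1 cDNA 2 gave more negative ratios in B,Pl and mutator than in b,pl, and sdg110 did so in bz2, without passing the test. HDT1 cDNA 2 read −1.22 in B,Pl, −0.70 in mutator and −0.07 in bz2, against 0.53 and −0.11 in b,pl. The B,Pl and mutator values lay below both b,pl arrays. The fitted differences from b,pl were −1.63 (SE 0.597, limma adjusted p = 0.838) in B,Pl and −1.10 (SE 0.597) in mutator, and turned they were −1.73 and −1.20. HDT1 cDNA 4 read −0.59 in B,Pl and −0.33 in mutator, against 0.18 and 0.06 in b,pl, also below both b,pl values. sdg110 read −0.50 in bz2, 0.03 in B,Pl and 0.04 in mutator, against 0.75 and 0.22 in b,pl, and the bz2 difference was −0.96 (SE 0.670, limma adjusted p = 0.999), or −0.77 turned. rmr7 lay between −0.17 and 0.05 in these 3 genotypes. The percent of all cDNAs called was 0.0186 for B,Pl, 0.0371 for bz2 and 0 for mutator, with 0 of 7 members each time and 1, 0 and 0 members at an unadjusted p under 0.05, against 5.65%, 4.86% and 5.88% of all cDNAs.

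Under the CA filter, B,Pl differed from b,pl most in sdg110, with unequal values on the 2 arrays. sdg110 read 0.48 with B,Pl in Cy5 and 2.26 with B,Pl in Cy3, the latter on one of the 3 widest arrays. Both were positive, and the fitted difference was 1.28 (SE 0.330, limma adjusted p = 0.463), or 0.695 without B,Pl CA replicate 2. HDT1 cDNA 3 read 0.66 and 0.41, with a difference of 0.71 (SE 0.245, limma adjusted p = 0.463). Of the 3 members with both arrays above 0, it had the closest pair. rmr7 read 0.16 and −2.32, and its difference of −0.79 (SE 0.512, limma adjusted p = 0.534) was 0.02 without that array. HDT1 cDNA 1 read 0.14 and 1.90, with a difference of 0.86 (SE 0.382), where the second value is that of 1 spot on the same wide array. Read as tested group over other channel, its difference was −0.45, and that of sdg110 −0.44.

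The single CA arrays of bz2 and mutator, both with conflicting dye labels, read −0.02 and 0.69 for HDT1 cDNA 3, 0.06 and 0.59 for SET102, and 0.38 and 0.32 for rmr7. HDT1 cDNA 3 and SET102 were thus close to b,pl in bz2 and above it in mutator. The mutator difference of SET102 was 0.59 (SE 0.269, limma adjusted p = 1), and it was −0.59 with the 4 conflicting arrays turned. The percent of all cDNAs called under CA was 0 for B,Pl, bz2 and mutator, with 0 of 7 members each time and 2, 0 and 0 members at an unadjusted p under 0.05, against 10.5%, 0.519% and 4.68% of all cDNAs.

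Set side by side as fitted levels relative to b,pl CA, the 19 groups gave an order for each cDNA that rests in part on the arrays with conflicting dye labels. All 18 neighbouring pairs differed by less than 2 SE of their difference for each of the 7 cDNAs, and all 18 by less than 1 SE except for 1 pair each of HDT1 cDNA 3 and SET102; neighbours in a sorted order lie close by construction, and this says nothing of groups farther apart. The lowest and highest levels were −0.50 in bz2 PE and 1.95 in mutator LE for HDT1 cDNA 3, and −0.34 in B,Pl PE and 1.23 in mutator LE for SET102. The ends of the order were −0.48 in bz2 UV-B and 1.28 in B,Pl CA for sdg110, and −1.39 in B,Pl LE and 0.79 in b,pl PE for rmr7. For HDT1 cDNA 1, HDT1 cDNA 2 and HDT1 cDNA 4 the lowest level was that of B,Pl UV-B, at −0.38, −1.42 and −0.63, while the highest was 0.86 in B,Pl CA, 1.11 in bz2 PE and 1.43 in b,pl PE. The levels of mutator LE and bz2 PE pass through the single CA arrays of their genotypes, whose dye labels conflict. With the 4 conflicting arrays turned, mutator LE stood at 0.52 for HDT1 cDNA 3 and 0.04 for SET102. The highest groups were then B,Pl LE at 1.17 and bz2 LE at 0.54, and the lowest was mutator PE at −1.65 and −1.40. For HDT1 cDNA 2 the highest group was then mutator PE at 1.32, and the lowest was still B,Pl UV-B at −1.40. The lowest group was no longer B,Pl UV-B for HDT1 cDNA 1 (mutator PE at −0.42) and HDT1 cDNA 4 (bz2 LE at −0.80).

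Dye swaps, in which 1 group was measured against the same other RNA in both orientations, showed how far single member values repeat if the dye labels hold. After turning the Cy3 arrays, 24 of 54 member values in 8 swaps had the same sign on both arrays, or 44.4%, against 52.2% of all cDNAs. HDT1 cDNA 3 and rmr7 kept their sign in 5 of 8 swaps, SET102 in 4 of 8, HDT1 cDNA 4 in 3 of 8, HDT1 cDNA 2 in 3 of 7, sdg110 in 2 of 8 and HDT1 cDNA 1 in 2 of 7. HDT1 cDNA 3 and SET102 were positive on both arrays of bz2 LE, the swap in which all cDNAs agreed best (Spearman rho 0.552). HDT1 cDNA 2 and rmr7 were negative on both, so 4 of 7 members kept their sign in that swap. In the swap of B,Pl PE, 2 of 7 members and 24.8% of all cDNAs had the same sign, with a Spearman rho of −0.608. The Cy5 arrays of this swap and of that of b,pl PE removed (Spearman rho −0.142) have conflicting dye labels, so the orientation of both swaps is in doubt. The fitted dye term was 0.20 (SE 0.125) for HDT1 cDNA 2 and 0.22 (SE 0.205) for rmr7, and within 0.05 of 0 for the other members.

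**Figure D3:**
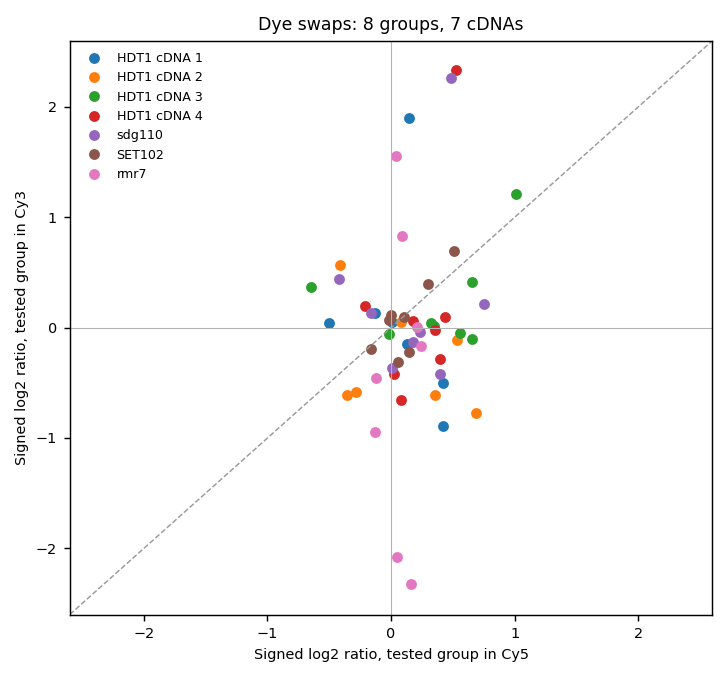
Signed log2 ratio with the tested group in Cy3 (vertical axis) against that in Cy5 (horizontal axis) for the 8 groups measured in both orientations, 1 point per cDNA and group. The dashed line marks equal values; 24 of 54 points have the same sign on both axes, and the points farthest from the line lie on B,Pl CA, b,pl PE and b,pl LE.

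The 4 cDNAs of HDT1 did not follow each other as 1 gene, and HDT1 cDNA 3 ran opposite to HDT1 cDNA 2. Over the arrays, which share RNA in the other channel and differ in spread, HDT1 cDNA 2 and HDT1 cDNA 4 correlated at Pearson r 0.873 (Spearman rho 0.838, n = 26). HDT1 cDNA 2 and HDT1 cDNA 3 correlated at −0.569 (rho −0.595, n = 26). Neither value changed sign without the 2 arrays farthest from the median, at 0.819 and −0.517, or without the 3 widest arrays, at 0.896 and −0.560. HDT1 cDNA 1 correlated with HDT1 cDNA 2 at 0.0217 (rho 0.263), with HDT1 cDNA 3 at 0.0984 (rho −0.0229) and with HDT1 cDNA 4 at 0.242 (rho 0.386), and at 0.329, −0.0442 and 0.453 without the 2 farthest arrays. The median over the 6 pairs was 0.0600, against 0.472 for 5865 pairs of cDNAs of the same annotated gene. Of 50 genes with at least 4 cDNAs, 10 had a median at or below that of HDT1, and the median of these 50 gene values was 0.283. Annotation of the cDNAs is old and cDNAs of close family members can cross-hybridise; whether all 4 derive from HDT1 transcripts was not tested, and their sequences were not analysed here.

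HDT1 cDNA 3 instead followed the SET-domain gene SET102, at r 0.808 (rho 0.676, n = 27), 0.709 without the 2 farthest arrays and 0.871 without the 3 widest. Both were positive on most LE arrays and negative on most PE arrays outside b,pl, as given above. SET102 correlated with HDT1 cDNA 2 at −0.538. The sdg110 cDNA correlated with HDT1 cDNA 1 at 0.550, but rho was 0.000342 and r without the 3 widest arrays −0.134. Likewise sdg110 and rmr7 correlated at −0.511, and at −0.0697 without those arrays. The values of these latter 2 pairs thus rest on the widest arrays, whereas those of HDT1 cDNA 3 with SET102 and of HDT1 cDNA 2 with HDT1 cDNA 4 do not.

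**Figure D4:**
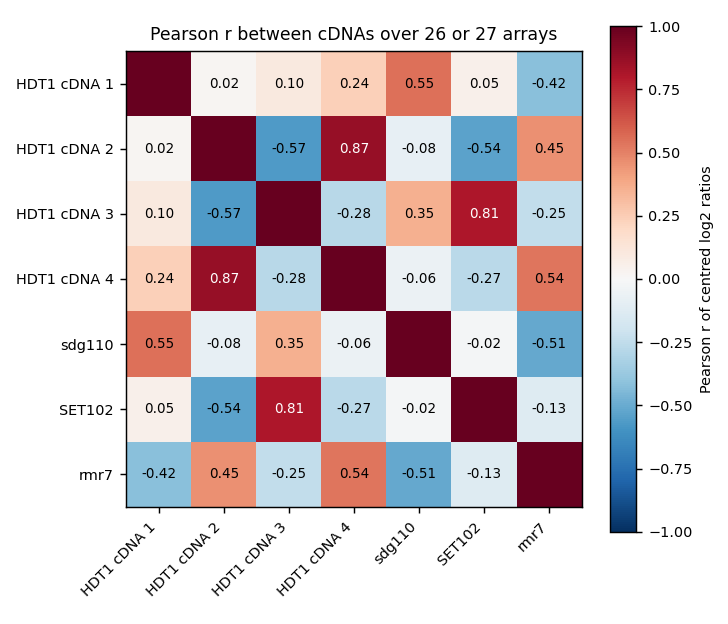
Pearson r between the centred log2 ratios of each pair of the 7 cDNAs over 26 or 27 arrays, as a colour scale from −1 to 1 with the value in each cell. The highest values are 0.87 for HDT1 cDNA 2 with HDT1 cDNA 4 and 0.81 for HDT1 cDNA 3 with SET102, and the lowest is −0.57 for HDT1 cDNA 2 with HDT1 cDNA 3.

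**Figure D5:**
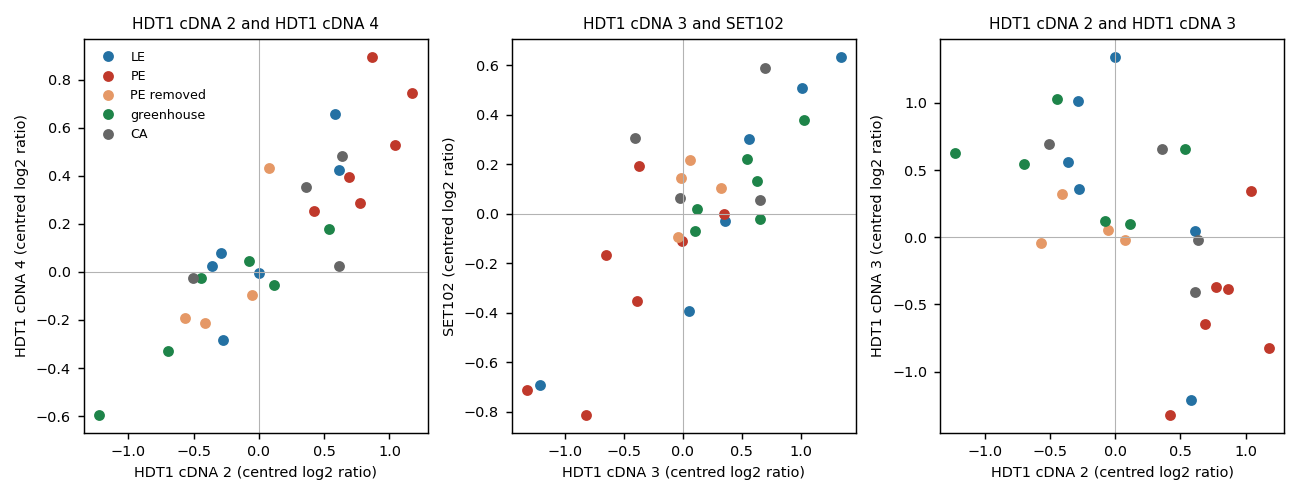
Centred log2 ratios of 2 cDNAs against each other for 3 pairs, 1 point per array, coloured by treatment of the tested group; values are as deposited, before the sign of Cy3 arrays was turned, and the left panel and the right panel leave out b,pl PE replicate 2, which has no value for HDT1 cDNA 2. The points rise in the left and middle panels (r 0.873 and 0.808) and fall in the right one (r −0.569).

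Among the other annotated genes, the 3 most alike were found for each gene by Pearson r between means of its cDNAs over the arrays, among 209 genes. For SET102 they were zap1, a MADS-box gene, at 0.863, rld2, a homeobox gene of leaf polarity, at 0.778 and the small GTPase gene rop3 at 0.708, and without the 3 widest arrays these were 0.852, 0.846 and 0.755. For rmr7 they were the growth-regulating factor gene GRF8 at 0.840, the cell cycle kinase gene wee1 at 0.772 and the homeobox gene ocl4 at 0.756, and without those arrays 0.494, 0.619 and 0.632. The likeness of SET102 therefore did not rest on the widest arrays, and that of rmr7 was smaller without them. For sdg110 they were LOC541824 at 0.829, LOC542663 (CAD2, BM1) at 0.758 and PAD1 at 0.754, with 0.565, 0.778 and 0.00142 without the widest arrays. For the mean of the HDT1 cDNAs they were eIF4E1 at 0.735, hdt102 at 0.731 and Pti1d at 0.713, with 0.0731, 0.715 and −0.0618 without them. Of the HDT1 neighbours, hdt102 alone kept its value, and it is another annotated gene of the HD2 deacetylase type (HD2b). Taken cDNA by cDNA, hdt102 correlated with HDT1 cDNA 4 at 0.673, with HDT1 cDNA 2 at 0.520, with HDT1 cDNA 1 at 0.498 and with HDT1 cDNA 3 at −0.0991.

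The other annotated chromatin genes listed here numbered 8 with 27 cDNAs, and the list leaves out the linker histone H1 genes. It holds the deacetylase genes hda110, hda113 and hdt102 and the SET-domain gene SDG123. The other 4 belong to the HMG and nfd groups of chromatin proteins that bind DNA. They are HMG I/Y-2, hmg2, hmg3 and nfd101, the last with 19 of the cDNAs. In the 21 comparisons 0 of the 27 listed cDNAs passed in either direction. Their median under PE lay at 0.18 in b,pl, 0.16 in B,Pl, 0.17 in bz2 and −0.06 in mutator, while the median of all cDNAs lay between −0.03 and 0.01. Under CA the median of B,Pl minus b,pl was −0.19, with 19 of 27 cDNAs negative, against −0.01 for all cDNAs. These medians and counts are over cDNAs and not genes, and most of the cDNAs are those of nfd101 alone. SDG123 had a mean LE difference of 0.44 (SE 0.117, limma adjusted p = 0.0989), of the same sign as SET102. That of sdg110, the other SET-domain member, was 0.06 (SE 0.241). The mean LE differences of the listed deacetylase cDNAs were −0.17 (SE 0.139) for hda110 and −0.01 (SE 0.141) for hdt102. For the 2 cDNAs of hda113 they were −0.34 (SE 0.210) and 0.19 (SE 0.382). hda110 stood at 1.10 (SE 0.290, limma adjusted p = 0.707) in B,Pl after PE removal, where sdg110 and HDT1 cDNA 1 were negative. The 2 cDNAs of hda113 stood at −0.83 (SE 0.330) and −0.17 (SE 0.597) for b,pl under LE, and at −0.20 (SE 0.481) and 2.26 (SE 0.873) for B,Pl under LE.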

How the data were processed

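Dual-colour cDNA arrays of maize leaf RNA were analysed from 1 value per spot. The authors deposited log ratios of both channels, read here as log2. Base 2 was inferred: among values larger than 2 in size, 16.3% gave a whole antilog in base 2 (tolerance 1e-04), against 0.0751% in base e and 1.90% in base 10. For scanner, background correction, normalisation and numerator, the step is not given in the sources used here. Means of the spots with values, up to 3, were taken (median SD 0.0375 within runs, 0.180 for runs shifted by 1 spot), each array was centred on its median, and cDNAs with values on at least 14 arrays were kept, which were all 5400. Least squares with 19 terms left 8 residual degrees of freedom, to which variance shrinkage with limma 3.58.1 in R 4.3.3 added 2.42. Benjamini-Hochberg adjustment ran over all cDNAs, with both directions tested. The fit was tested on simulated data. A lone array of a group was taken to vary as the rest do, and the number of arrays limits the precision. Fitted values named are those past the threshold and, per gene and family of comparisons, that with the smallest unadjusted p; per-array values and the remaining fitted values were added to show the data. The members and lists were chosen with earlier results of these data known. Genes were named through the RefSeq table of Zm-B73-REFERENCE-NAM-5.0, which matched 208 of 213. Correlations are descriptions. Alternatives tried were centring, scaling, dye reading, signs of single arrays, missing values, spot summary and leaving out arrays.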

Additional observations from a re-analysis of the deposited data

How the results depend on the processing

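The results were recomputed under 29 alternatives, of which 17 left out 1 array and 1 was chosen after seeing the data. A lone array left in a group was taken to vary as the rest do. The count of members called was 0 in every comparison and alternative except in 5 comparisons under 3 alternatives. It was 1 for LE minus CA in bz2 and for the mean of 4 genotypes (HDT1 cDNA 3) with B,Pl PE replicate 3 turned, and 0 to 1 with single arrays left out, the 1 being without B,Pl PE replicate 3. It was 0 to 1 for PE minus CA in b,pl, for its mean of 4 genotypes and for the F test of PE, the 1 being without b,pl PE replicate 1. Of 20 named fitted values, 10 kept their sign in every alternative. Read as tested group over other channel, HDT1 cDNA 4 for PE in b,pl was −0.905, sdg110 for PE removed in B,Pl 0.0108, sdg110 for B,Pl minus b,pl under CA −0.441, and rmr7 was 1.06 for LE in b,pl, −0.00256 for the PE mean, −0.370 for PE removed in b,pl and 0.895 for B,Pl minus b,pl under CA. HDT1 cDNA 4 for PE in b,pl was also −0.905 with b,pl PE replicate 2 turned, and rmr7 for PE removed in b,pl −0.370 with the first array of that group turned. With the 4 arrays of conflicting labels turned, SET102 was −0.591 for mutator minus b,pl under CA and −0.00553 for PE removed in b,pl, and the latter was −0.0599 without centring. Without the 3 widest arrays, the alternative chosen after seeing the data, rmr7 for B,Pl minus b,pl under CA was 0.0190. With 1 array left out, sdg110 for LE in b,pl ran from −0.0881 to 0.286, rmr7 for PE removed in b,pl from −0.214 to 1.13 and rmr7 for B,Pl minus b,pl under CA from −1.33 to 0.0167. The cause was not tested. Over all cDNAs the number called ran over the alternatives from 0 to 125 for the LE mean (69 as reported), 6 to 53 for LE in bz2 (30), 7 to 48 for LE in B,Pl (13), 2 to 6 for LE in mutator (3), 0 to 103 for LE in b,pl (0), 1 to 46 for the F test of LE (13), 0 to 645 for PE in b,pl (0), 0 to 211 for the PE mean (0), 0 to 204 for the F test of PE (0), 0 to 35 across the 6 greenhouse comparisons and 0 to 9 across the other comparisons. The median residual variance was 0.168 as reported, 0.22 read as group over other channel, and 0.152, 0.158 and 0.161 with B,Pl PE replicate 3, b,pl PE replicate 2 or the first array of b,pl PE removed turned. The PE mean of rmr7 ran from 0.177 to 0.733 with 1 array left out. No paired analysis was possible because the labels give no replicate numbers that groups share.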
